A study of Mus musculus with 6 samples.

Results

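The proteasome and the enzymes that attach and remove ubiquitin were followed here through 59 genes of mouse kidney. They are the autosomal protein-coding genes named as proteasome subunits (Psma, Psmb, Psmc and Psmd), Ube2 conjugating enzymes, Usp ubiquitin-specific proteases or Trim ligases that could be read from the deposited counts and had at least 10 counts in 3 or more libraries. Such names belong to 201 annotated genes, 191 of them autosomal, of which 75 could be read, 59 passed the count limit and 16 did not. The 59 comprise 8 proteasome genes, 13 Ube2, 20 Usp and 18 Trim, out of 9520 genes read and 5246 tested over the whole series. Trim34a, with 12 counts in its third-highest library, lay just inside the limit, and Trim72 and Trim43b, with 6 each, just outside it. Trim34a alone passed through a single group, the libraries labelled acute renal failure.

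Ubiquitin is a small protein that is joined to other proteins by a relay of an activating enzyme (E1), a conjugating enzyme (E2, the Ube2 family) and a ligase (E3) that picks the substrate. TRIM proteins form a large family, most of them RING ligases and many known from innate immunity. The USP proteins are the largest family of enzymes that take ubiquitin off again. Chains of ubiquitin send most of their substrates to the proteasome, a barrel-shaped protease capped by a regulatory particle. Kidney tubule cells depend on this system to turn over transporters, receptors and damaged proteins.

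The 6 libraries were made from kidney RNA of C57BL/6 mice at postnatal day 21, with no treatment, genotype or cause of renal failure named. Of them 3 are labelled healthy and 3 acute renal failure (ARF), written below as healthy-labelled and ARF-labelled. Nothing in the labels states that each library had its own mouse. The p-values therefore refer to the variation among these libraries, which may be technical. The comparison asks which transcripts differ between the diagnoses, and a fold change in RNA of whole kidney cannot tell fewer cells of a type from less RNA per cell.

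Total counts ran from 2873370 to 5710010 in the healthy-labelled and from 5455886 to 6191479 in the ARF-labelled libraries. The injury markers went against the diagnosis, and whether the labels of the groups were exchanged was not tested. Every direction below follows the labels and would turn if they were. The tubular injury list had 7 tested genes, of which 6 fell and none rose in the ARF-labelled group, and their summed level was 11500 to 18300 normalised CPM in the healthy-labelled against 1980 to 2660 in the ARF-labelled libraries. Krt20, Gdf15 and Cdkn1a of this list had log2 fold changes of -3.87, -3.45 and -3.52. Of 5 proximal tubule genes 4 were lower, while all 6 intercalated cell and all 4 principal cell genes tested were higher, with summed levels of 1140 to 1390 against 4360 to 5490 and of 3570 to 4380 against 8830 to 10800 normalised CPM. All 4 macrophage genes and both neutrophil genes tested were lower, with summed levels of 39.2 to 72.0 against 16.1 to 20.8 and of 50.1 to 165 against 2.95 to 6.46 normalised CPM. Both erythroid genes tested were lower. The 4 erythroid genes read, with Hbb-bt at 0 in every library, had summed levels of 175 to 824 against 26.9 to 75.9 normalised CPM. Ptprc, the only leukocyte gene tested from the T and B cell list, was lower (log2 fold change -1.13), and Ttn, the only striated muscle gene tested, was higher (2.03). No gene of the cell cycle list could be read. The part of these shifts in cell type markers in the results on ubiquitin genes was not tested.

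Values are normalised CPM, counts scaled to the library total after TMM normalisation, given for replicates 1, 2 and 3 in that order or as mean ± SD (n = 3 libraries). Because most genes were read over a fraction of their exons, levels are not compared between genes, except as a ratio of the same gene pair followed across libraries. Log2 fold changes are ARF-labelled minus healthy-labelled with their SE, and a gene is called when its edgeR quasi-likelihood p, adjusted by Benjamini-Hochberg over all genes tested, is under 0.05.

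Most of the 59 genes differed little between the groups. At the threshold 9 rose and 15 fell in the ARF-labelled group, 40.7% of the 59, where 50.0% of all genes tested were called (25.1% higher and 24.9% lower). Calls of at least 2-fold were made for Trim2 in the higher direction and for Trim16, Trim6 and Trim25 in the lower direction, with 11.4% (higher) and 13.5% (lower) of all genes tested called at that size. The median size of the log2 fold change was 0.36 over the 59 genes and 0.53 over all genes tested. The 59 had a median of 1525 counts and a median SE of 0.14, against 989.5 and 0.18 over all. The part of this in the smaller sizes was not tested. The signed median was -0.19 over the 59 and 0.01 over all. The libraries of the groups did not overlap for 30 of the 59 genes (50.8%, with 60.2% of all genes tested). The ARF-labelled libraries lay above in 1629 and below in 1527 of all 5246 genes tested, and in 10 and 20 of the 59. The balance of directions depends on the scaling: by library totals alone, which puts the median of all genes at 0.19, 11 were higher and 9 lower, and with DESeq2 size factors 7 were higher and 16 lower. Without ARF-labelled replicate 1 the calls came to 15, of which 6 were higher and 9 lower. Among the Usp genes 5 calls were left without that library and 4 without ARF-labelled replicate 2, instead of 9. Among the Ube2 genes 3 of 5 were left when healthy-labelled replicate 1, healthy-labelled replicate 3, ARF-labelled replicate 1 or ARF-labelled replicate 3 was dropped.

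**Figure D1:**
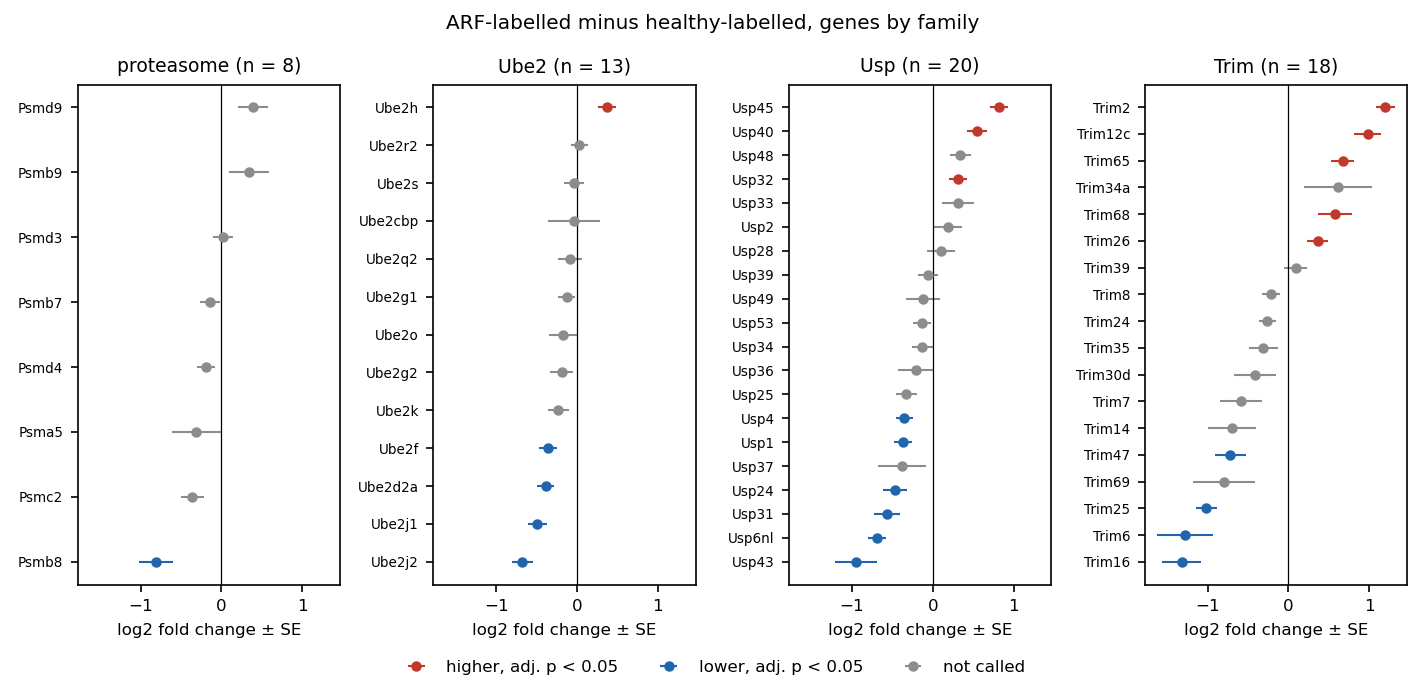
Log2 fold change ± SE (horizontal axis, ARF-labelled minus healthy-labelled, n = 3 libraries a group) of each of the 59 genes (vertical axis), in a panel per family. The proteasome and Ube2 genes lie within -0.81 to 0.39, while the Trim genes range from -1.32 to 1.20.

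**Figure D2:**
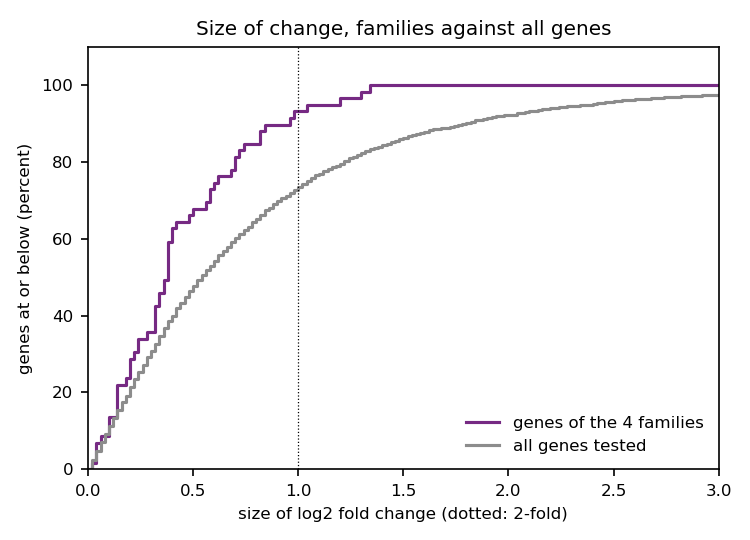
Percent of genes (vertical axis) whose log2 fold change is no larger in size than the value on the horizontal axis, for the 59 genes and for all 5246 genes tested. At a size of 0.5 the curve of the 59 genes stands at 67.8% and that of all genes at 47.7%, and at the dotted 2-fold line they stand at 93.2% and 73.5%.

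Among the conjugating enzymes 4 of 13 genes were lower in the ARF-labelled libraries, 1 was higher and 8 were not called, and no change reached 2-fold. The share called was 38.5%, with 50.0% over all genes tested. The genes that were lower include the pair of E2 enzymes anchored in the membrane of the endoplasmic reticulum, Ube2j1 and Ube2j2, which serve the degradation of misfolded secretory proteins. Ube2j2 measured 124, 115 and 136 normalised CPM in the healthy-labelled and 74.7, 70.1 and 88.7 in the ARF-labelled libraries. Every ARF-labelled library lay below every healthy-labelled library, a 1.61-fold difference (log2 fold change -0.68, SE 0.13, edgeR adjusted p = 0.00232). Ube2j1, counted over all 3530 of its exon bases, measured 348, 331 and 366 against 216, 276 and 254 normalised CPM (log2 fold change -0.49, SE 0.12, edgeR adjusted p = 0.0105). Both kept their call in all 6 fits that left out 1 library.

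Ube2d2a, of the broadly acting UbcH5 group, measured 331, 335 and 369 in the healthy-labelled and 252, 274 and 265 normalised CPM in the ARF-labelled ones (log2 fold change -0.39, edgeR adjusted p = 0.0144). Its reads may include those of a near-identical copy. Ube2f, which conjugates the ubiquitin-like protein NEDD8 and not ubiquitin, stood at 130 ± 5.13 in the healthy-labelled and 101 ± 11.6 normalised CPM in the ARF-labelled libraries (-0.36, edgeR adjusted p = 0.0264). In both genes the groups were separate but the differences were small. Ube2d2a lost its call without ARF-labelled replicate 1 (edgeR adjusted p = 0.0582), and Ube2f when either group's replicate 1 or replicate 3 was dropped (0.0544 to 0.111). By library totals alone neither was called (Ube2d2a -0.21, edgeR adjusted p = 0.105, and Ube2f -0.19, edgeR adjusted p = 0.167), and Ube2f was not called with no filter on low counts (0.0872).

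Ube2h, the E2 that works with the CTLH ligase complex, was the only Ube2 gene called higher. It measured 589, 690 and 644 in the healthy-labelled and 782, 843 and 858 normalised CPM in the ARF-labelled libraries, and was read over 4650 of its 4657 exon bases. The ARF-labelled libraries all lay above the others, by 1.29-fold (log2 fold change 0.37, SE 0.11, edgeR adjusted p = 0.0246). The call was lost when replicate 1 or 3 of the healthy-labelled or replicate 2 or 3 of the ARF-labelled group was dropped (edgeR adjusted p 0.0587 to 0.0806), and its adjusted p was 0.0601 with the replicate number as a block.

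The Ube2 genes with the smallest differences were Ube2r2, a CDC34-type partner of cullin-RING ligases, and Ube2s, which extends chains for the anaphase-promoting complex. Ube2r2 stood at 552 ± 21.8 in the healthy-labelled and 564 ± 30.1 normalised CPM in the ARF-labelled ones (log2 fold change 0.03, SE 0.11, edgeR adjusted p = 0.826), with the groups overlapping. Ube2s stood at 226 ± 9.17 against 221 ± 25.5 normalised CPM (-0.04, SE 0.12). The other 6 genes, Ube2cbp, Ube2g1, Ube2g2, Ube2k, Ube2o and Ube2q2, had log2 fold changes of -0.23 to -0.04 and edgeR adjusted p of 0.188 to 0.983. Of these Ube2cbp is named for binding an E2 and is not one itself.

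Of the 4 families the Trim genes held the largest changes. Of 18 genes 5 were higher, 4 lower and 9 not called. With 50.0% called, the family matched the share over all genes tested. Its libraries did not overlap between the groups for 61.1% of genes, with 60.2% of all genes tested. Calls of at least 2-fold covered 22.2% of the family, with 11.4% (higher) and 13.5% (lower) of all genes tested. Its median size of log2 fold change was 0.64, with 0.53 over all genes tested. Trim2, a ligase known from neurons, where it acts on neurofilament light chain, led the rises. It lies on chromosome 3 at 84160439 to 84306877 (GRCm38) and was read over 775 of its 8321 exon bases. Its level was 79.0, 64.0 and 79.5 normalised CPM in the healthy-labelled and 162, 171 and 179 in the ARF-labelled libraries. The lowest ARF-labelled library was more than any healthy-labelled one by a wide margin, and the fold change was 2.29 (log2 fold change 1.20, SE 0.12, edgeR adjusted p = 8.16e-05). Trim65, a ligase acting on the RNA sensor MDA5, measured 20.4, 20.4 and 24.4 against 35.7, 30.9 and 36.5 normalised CPM (0.67, SE 0.14, edgeR adjusted p = 0.00489). Trim2 and Trim65 kept their calls in all 6 fits that left out 1 library. Trim2 could not be tested when rows needed 0.99 of their exon bases in 1 gene or 0.1 of all their bases on it.

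In the opposite direction Trim16, a ligase with a part in the response to damaged lysosomes, measured 44.5, 30.2 and 51.3 normalised CPM in the healthy-labelled and 20.4, 12.5 and 17.7 in the ARF-labelled libraries. This 2.50-fold difference was the largest fall among the 59 genes (log2 fold change -1.32, SE 0.24, edgeR adjusted p = 0.00209). Trim25, the ligase that activates the RNA sensor RIG-I, lies on chromosome 11 at 88999376 to 89020293. It measured 220, 172 and 205 normalised CPM in the healthy-labelled and 97.7, 87.0 and 109 in the ARF-labelled ones, 2.03-fold lower (log2 fold change -1.02, SE 0.13, edgeR adjusted p = 0.000352). For both genes every ARF-labelled library lay below every healthy-labelled one, with the healthy-labelled values of Trim16 widely spread (42.0 ± 10.8 against 16.9 ± 4.02). The calls held in all 6 fits that left out 1 library. The macrophage and neutrophil marker sums given above moved in the same direction as Trim25 and Trim16, and their part in these falls was not tested.

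Trim47 was nearly the same in the healthy-labelled libraries, at 234, 238 and 236 normalised CPM, and uneven in the ARF-labelled ones, at 117, 120 and 191. It was called lower (log2 fold change -0.72, SE 0.19, edgeR adjusted p = 0.0118), with -0.98 and -0.58 as the extremes when 1 library was left out. The healthy-labelled values lay above all ARF-labelled ones, of which replicate 3 was the nearest.

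Several Trim genes sit in a cluster on chromosome 7 that holds the mouse relatives of TRIM5 and their neighbours, and they did not move together. Trim12c (104338754 to 104353362, GRCm38) measured 33.7, 32.7 and 30.2 normalised CPM in the healthy-labelled and 53.0, 79.7 and 57.9 in the ARF-labelled ones, 1.97-fold higher (log2 fold change 0.98, SE 0.17, edgeR adjusted p = 0.00192). Trim6 (104218793 to 104235152), a ligase of the interferon response, measured 3.58, 6.54 and 4.40 against 1.71, 2.26 and 1.80 normalised CPM. It was called lower (-1.28, SE 0.35, edgeR adjusted p = 0.0159) on 87 counts in all, and lost the call without healthy-labelled replicate 2 or ARF-labelled replicates 1 or 3 (0.0506 to 0.0556). Trim30d (104470014 to 104507849) was not called, at 8.63 ± 1.98 in the healthy-labelled and 6.39 ± 0.873 normalised CPM in the ARF-labelled libraries (-0.42, SE 0.26), and neither was Trim34a (104244457 to 104262234), with 59 counts in all (0.61, SE 0.42). Genes of this cluster have close copies, so reads of Trim12c, Trim30d and Trim34a may include those of a relative.

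Many Trim genes are targets of interferon, which acts through a promoter element made of GAAA and GAAA with 2 bases between (ISRE). The 250 bases before the RefSeq start (GRCm38.p6) were searched for this and 7 other motifs on both strands. The other motifs were TGACNNNGC (antioxidant response element), GGGA and TTCC with 2 bases between (NF-kB), TGANTCA (AP-1), CACGTG (E-box), GAANNTTC (a heat shock pair), CCAAT (NF-Y) and TGACGTCA (cAMP response element). RefSeq held 59 promoters for 44 of the 59 genes. The ISRE stood in 6 of them (10.2%), compared with 2.98% of all 32851 promoters. The 6 were those of Trim12c, Trim30d, Trim26, Psmd4, Psmd9 and Usp49. TGACNNNGC, the element bound by the proteasome regulator NRF1, stood in 8 promoters (13.6%) and in 10.2% of all, and among 7 proteasome promoters in that of Psmd9. CACGTG stood in 10.2% (6.02% of all), CCAAT in 25.4% (33.8%) and TGACGTCA in 3.39% (1.55%). TGANTCA and GAANNTTC stood in 5.08% each (6.75% and 6.69% of all), and the NF-kB motif in 0.0% (1.21%). Some genes have several promoters, and no share was tested.

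The promoters of the 3 Trim genes with this element are shown because the genes had different outcomes, together with that of Trim25, an interferon-inducible gene whose window had no match. Each runs 5′ to 3′ on the gene's strand up to the base before the start, and capitals mark matches to any of the 8 motifs. The windows are chr7:104353350-104353599 (minus strand) for Trim12c, chr7:104507850-104508099 (minus) for Trim30d, chr17:36836896-36837145 (plus) for Trim26 and chr11:88999153-88999402 (plus) for Trim25.
Trim12c: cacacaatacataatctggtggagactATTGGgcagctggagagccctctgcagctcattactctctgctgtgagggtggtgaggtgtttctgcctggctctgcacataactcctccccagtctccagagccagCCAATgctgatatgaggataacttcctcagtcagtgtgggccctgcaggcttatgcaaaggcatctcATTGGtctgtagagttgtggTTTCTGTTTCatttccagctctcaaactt
Trim30d: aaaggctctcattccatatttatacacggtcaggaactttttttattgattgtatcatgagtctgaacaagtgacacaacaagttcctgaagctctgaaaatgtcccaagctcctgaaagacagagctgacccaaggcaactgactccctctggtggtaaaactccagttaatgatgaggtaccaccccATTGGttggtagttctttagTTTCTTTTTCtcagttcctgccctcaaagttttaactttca
Trim26: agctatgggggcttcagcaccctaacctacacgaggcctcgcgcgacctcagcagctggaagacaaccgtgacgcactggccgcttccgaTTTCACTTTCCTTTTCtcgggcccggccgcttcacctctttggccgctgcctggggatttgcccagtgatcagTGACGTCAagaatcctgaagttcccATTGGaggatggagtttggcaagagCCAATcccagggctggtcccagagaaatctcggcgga
Trim25: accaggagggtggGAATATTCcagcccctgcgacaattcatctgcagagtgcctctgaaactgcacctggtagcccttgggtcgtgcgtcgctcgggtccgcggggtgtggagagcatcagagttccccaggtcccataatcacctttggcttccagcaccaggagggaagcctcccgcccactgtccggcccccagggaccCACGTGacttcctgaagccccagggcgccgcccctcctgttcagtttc

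The match to the ISRE, on the opposite strand, begins 29 bases before the start in Trim12c and 41 bases before it in Trim30d, and Trim26 has overlapping matches that begin 160 and 154 bases before its start. Trim25 has a CACGTG beginning 48 bases before its start. Of the genes with a match, Trim12c was called higher, and Trim30d, Psmd4, Psmd9 and Usp49 were not called. Trim26 was called higher by a small margin (log2 fold change 0.36, SE 0.13, edgeR adjusted p = 0.0467). It measured 80.7, 69.1 and 69.5 normalised CPM in the healthy-labelled and 105, 95.7 and 82.2 in the ARF-labelled ones. Trim26 lost its call when replicate 2 or 3 of the healthy-labelled or replicate 1 or 2 of the ARF-labelled group was dropped (edgeR adjusted p 0.0995 to 0.177) and under DESeq2 (0.0690). The same held for Trim68, also on chromosome 7, which was called higher (0.58, SE 0.21, edgeR adjusted p = 0.0448) and not called when any of the same 4 libraries was left out (0.10 to 0.164) or under DESeq2 (0.0774).

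The remaining Trim genes were not called. Trim39 stood at 45.6 ± 3.34 in the healthy-labelled and 48.6 ± 6.65 normalised CPM in the ARF-labelled ones (log2 fold change 0.09, SE 0.14), and Trim8 at 101 ± 9.54 against 86.5 ± 5.38 normalised CPM (-0.22, SE 0.11). Together with Trim30d and Trim34a, another 5 genes, Trim14, Trim24, Trim35, Trim69 and Trim7, had log2 fold changes of -0.80 to 0.61 and edgeR adjusted p of 0.0786 to 0.254.

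Of the 20 Usp genes 6 were lower in the ARF-labelled libraries, 3 were higher and 11 were not called. The share called was 45.0%, near the 50.0% over all genes tested. Usp45, a protease that acts on the DNA repair nuclease subunit ERCC1, had the largest rise. It was read over all 6005 of its exon bases (chromosome 4, 21767156 to 21837872) and measured 127, 125 and 135 normalised CPM in the healthy-labelled and 238, 242 and 206 in the ARF-labelled libraries. The groups did not overlap and differed by 1.77-fold (log2 fold change 0.82, SE 0.11, edgeR adjusted p = 0.000362). Usp40 measured 35.3, 38.9 and 32.3 against 55.4, 50.0 and 50.3 normalised CPM (0.55, SE 0.12, edgeR adjusted p = 0.00636). Both held in all 6 fits that left out 1 library. Usp32, a membrane-attached protease of endosomes and lysosomes, was called higher (0.31, SE 0.11, edgeR adjusted p = 0.0369) at 147 ± 14.5 against 182 ± 1.76 normalised CPM, but in none of the 6 fits that left out 1 library, whichever it was (0.0620 to 0.112).

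Among the Usp genes that were lower, Usp6nl had the smallest p. Its name notwithstanding, it encodes a GTPase-activating protein for Rab5 in endocytosis and not a ubiquitin protease. It measured 123, 147 and 137 normalised CPM in the healthy-labelled and 89.8, 76.9 and 85.1 in the ARF-labelled ones, 1.61-fold lower in groups that did not overlap (log2 fold change -0.69, SE 0.11, edgeR adjusted p = 0.00131), and its call held in all 6 fits that left out 1 library. Usp43 had the largest fall of the family (-0.95, SE 0.26, edgeR adjusted p = 0.0165), but it was read over 39 exon bases, at 7.04 ± 0.928 against 3.65 ± 0.478 normalised CPM. Its call was lost without healthy-labelled replicate 1 or ARF-labelled replicate 2 (0.0551 and 0.0597). Usp43 could not be tested with at least 100 exon bases, or when rows needed 0.1 of all their bases on it.

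The other 4 Usp genes called lower had high counts and modest changes. Usp1, which removes ubiquitin from the DNA repair proteins FANCD2 and PCNA, measured 74.8, 78.9 and 74.2 in the healthy-labelled and 59.0, 55.7 and 61.6 normalised CPM in the ARF-labelled ones (log2 fold change -0.37, SE 0.11, edgeR adjusted p = 0.0221). Usp4, known to act on a TGF-beta receptor, measured 486, 449 and 444 against 358, 381 and 341 normalised CPM (-0.35, SE 0.11). In both, the spread within a group was narrow beside the gap between groups. Usp24 stood at 485 ± 39.2 against 350 ± 65.2 normalised CPM (-0.47, SE 0.15), and Usp31 at 293 ± 59.3 against 197 ± 20.2 normalised CPM (-0.57, SE 0.16). None of these 4 held in every fit that left out 1 library. Usp1 and Usp31 were lost without ARF-labelled replicates 1 or 2 (edgeR adjusted p 0.0557 to 0.0772), Usp4 without healthy-labelled replicate 1 or ARF-labelled replicates 1 or 3 (0.0528 to 0.0796) and Usp24 without replicate 1 or 3 of the healthy-labelled or replicate 2 or 3 of the ARF-labelled group (0.0616 to 0.0967). By library totals alone none of the 4 was called (0.0769 to 0.174).

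Usp2, whose short form is induced by aldosterone in the collecting duct and acts on the epithelial sodium channel, was not called. It measured 60.5, 46.9 and 61.3 in the healthy-labelled and 57.4, 58.5 and 77.7 normalised CPM in the ARF-labelled ones (log2 fold change 0.19, SE 0.17, edgeR adjusted p = 0.359), with the groups overlapping, while the principal cell markers were all higher. Usp39, a protease relative without catalytic activity that belongs to the spliceosome, stood at 95.5 ± 4.05 against 92.0 ± 10.9 normalised CPM (-0.06, SE 0.12), and Usp28, a stabiliser of MYC, at 15.1 ± 1.48 against 16.1 ± 1.23 normalised CPM (0.10, SE 0.17). The remaining 8 genes, Usp25, Usp33, Usp34, Usp36, Usp37, Usp48, Usp49 and Usp53, had log2 fold changes of -0.38 to 0.34 and edgeR adjusted p of 0.0588 to 0.653.

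Of the 8 proteasome genes that passed the count limit, 1 was lower, none was higher and 7 were not called. The share called was 12.5%, with 50.0% over all genes tested. The median size of log2 fold change of the 8 was 0.33, the same as for the Usp genes, and SEs reached 0.30. In the regulatory particle, Psmd3, a structural subunit of its lid, measured 332, 264 and 297 in the healthy-labelled and 288, 316 and 300.0 normalised CPM in the ARF-labelled ones (log2 fold change 0.02, SE 0.12, edgeR adjusted p = 0.919). The libraries of the groups were interleaved. Psmd4, the ubiquitin receptor Rpn10, measured 354, 327 and 317 against 264, 308 and 303 normalised CPM (-0.19, SE 0.11, edgeR adjusted p = 0.186). Psmc2, an ATPase of the base, measured 35.3, 30.5 and 29.0 against 24.7, 26.2 and 23.3 normalised CPM and missed the threshold (-0.36, SE 0.14, edgeR adjusted p = 0.0531), which it passed with DESeq2 size factors (0.0483) or a filter of 10 counts in 3 libraries (0.0473). By library totals alone Psmc2 was at -0.19 (edgeR adjusted p = 0.259). It was read over 50 exon bases. It could not be tested with at least 100, or when rows needed 0.1 of all their bases on it. In Psmd4 and Psmc2 every ARF-labelled library was below every healthy-labelled one. The groups did not overlap for 37.5% of the 8 genes, with 60.2% of all genes tested. By library totals alone Psmd4 was at -0.02 (edgeR adjusted p = 0.906). Psmd9, an assembly chaperone of the base, stood at 13.5 ± 1.70 against 17.7 ± 2.39 normalised CPM (0.39, SE 0.19, edgeR adjusted p = 0.115) and was called higher by library totals alone (0.0339).

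In the core particle, Psmb7, the constitutive subunit with trypsin-like activity, measured 132, 109 and 116 in the healthy-labelled and 107, 119 and 98.9 normalised CPM in the ARF-labelled ones (log2 fold change -0.14, SE 0.12, edgeR adjusted p = 0.346). Psma5, a structural subunit of the outer ring, stood at 12.5 ± 4.38 against 10.2 ± 2.20 normalised CPM (-0.31, SE 0.30). Neither was called, and Psmb7 and Psma5 were read over 59 and 64 exon bases.

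The single call in the proteasome fell on the immunoproteasome, the form in which interferon-inducible subunits replace the catalytic ones. Psmb8 (chromosome 17, 34197721 to 34201454) measured 22.8, 19.3 and 29.3 normalised CPM in the healthy-labelled and 13.4, 15.8 and 11.6 in the ARF-labelled ones, 1.76-fold lower without overlap (log2 fold change -0.81, SE 0.21, edgeR adjusted p = 0.0108). The call held in all 6 fits that left out 1 library. Psmb9 (chromosome 17, 34181987 to 34187764), its partner subunit and close neighbour in the major histocompatibility region, measured 13.8, 7.27 and 9.39 against 13.2, 13.9 and 12.5 normalised CPM and was not called (0.34, SE 0.25, edgeR adjusted p = 0.282). The ratio of Psmb8 to Psmb9 counts, which needs no scaling between libraries, was 1.66, 2.65 and 3.12 in the healthy-labelled and 1.01, 1.14 and 0.928 in the ARF-labelled libraries. The mean log2 ratio was 1.26 ± 0.47 among healthy-labelled libraries against 0.03 ± 0.15 among ARF-labelled ones (SD, n = 3). Psmb9 could not be tested when rows needed 0.1 of all their bases on the gene, whereas Psmb8 could (-0.81). The counts of Psmb9, and with them the ratio, may therefore include reads from outside its exons. This pair was chosen after its values were seen, so the difference is given with no test. Both genes are also expressed in leukocytes, whose macrophage and neutrophil markers were lower in the ARF-labelled libraries as given above, and their part in the fall of Psmb8 was not tested.

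**Figure D3:**
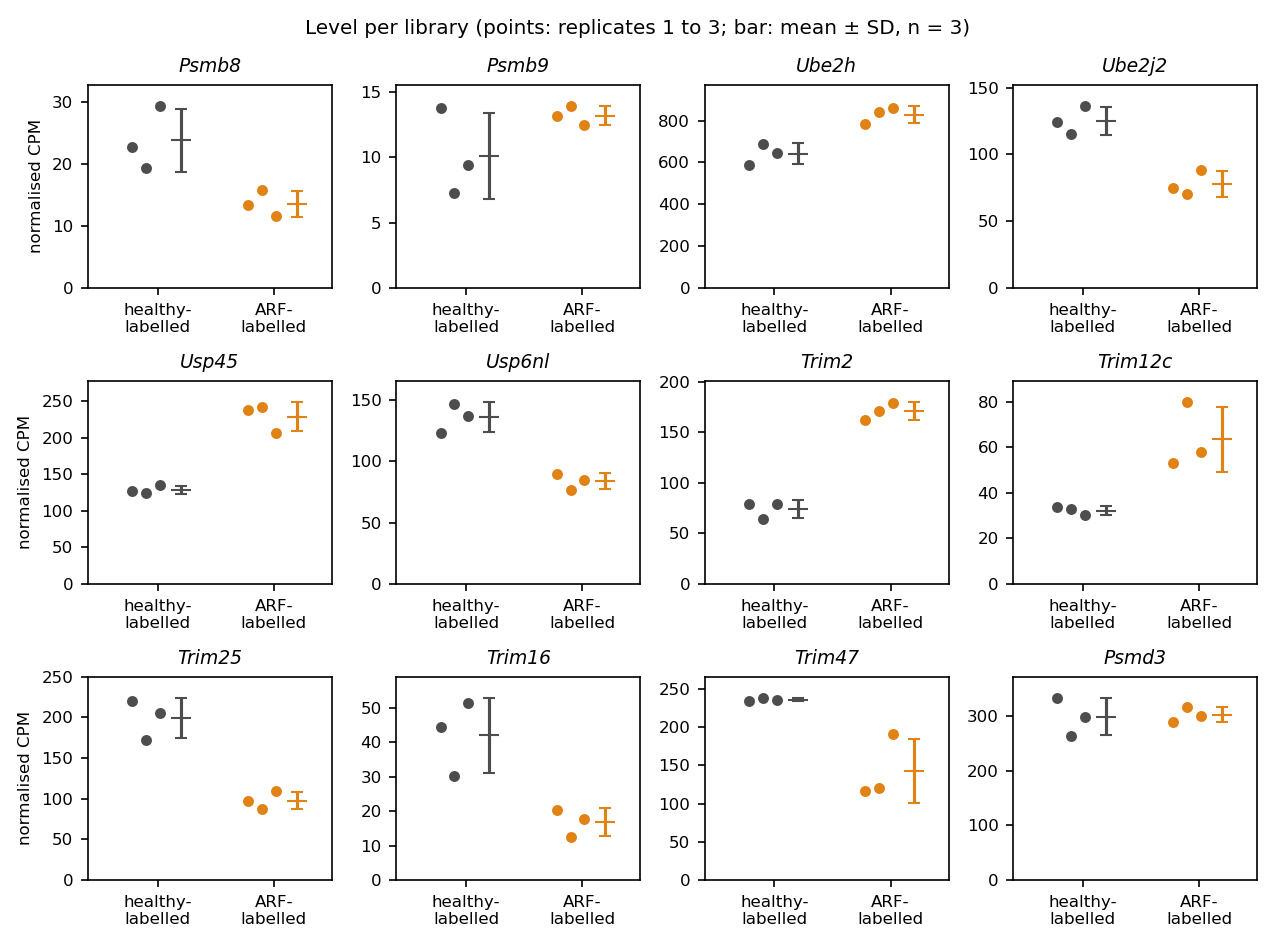
Normalised CPM (vertical axes, from 0) of 12 genes in each library, with points for replicates 1 to 3 of each group and bars for mean ± SD. Trim2, Usp45, Trim12c and Ube2h are higher and Psmb8, Ube2j2, Usp6nl, Trim25, Trim16 and Trim47 lower in every ARF-labelled library, whereas Psmb9 and Psmd3 overlap.

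Other genes of the ubiquitin system were called in both directions. Of 192 genes in 8 lists, 81 could be tested, 18 were higher and 19 lower, 45.7% of them, a share near the 50.0% called over all genes tested. Among 6 regulators and assembly factors of the proteasome 2 were higher and 3 lower. Nfe2l1, the transcription factor that drives proteasome genes, stood at 920 ± 78.4 in the healthy-labelled and 1200 ± 88.7 normalised CPM in the ARF-labelled ones (log2 fold change 0.38, SE 0.12, edgeR adjusted p = 0.0282), and the proteasome adaptor Ecpas was also higher (0.45, SE 0.10). Akirin2, which brings proteasomes into the nucleus, was lower (-0.52, SE 0.10), as was the activator Psme4 (-0.44, SE 0.12). The polyubiquitin gene Ubb was lower, at 2740 ± 239 against 2070 ± 79.0 normalised CPM (-0.41, SE 0.12, edgeR adjusted p = 0.0199).

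Among ligases outside the Trim family, 6 of 24 HECT and RING genes were higher and 4 lower. With 1 library left out, 1 to 3 of them were called higher and 3 to 4 lower. The higher calls were 1 without either of healthy-labelled replicates 1 and 3 or without ARF-labelled replicate 3, and 3 without any of the others. Birc3, an inhibitor of apoptosis and NF-kB target, stood at 646 ± 76.5 in the healthy-labelled and 144 ± 9.08 normalised CPM in the ARF-labelled ones (log2 fold change -2.16, SE 0.13, edgeR adjusted p = 1.11e-05). The SUMO-targeted ligase Rnf4 was lower (-0.60, SE 0.11), and the giant ligase Herc1 (1.01, SE 0.17) and Rbck1, of the linear chain complex (0.63, SE 0.19, over 25 exon bases), were higher. Of 15 cullin-RING and COP9 genes, 4 were higher, led by Cul9 (1.33, SE 0.27) and Cand2 (1.14, SE 0.26). Cul9 stood at 3.57 ± 0.769 against 8.78 ± 0.417 normalised CPM over 107 exon bases, and Cand2 at 4.72 ± 1.1 against 10.7 ± 1.38. The cullin scaffolds Cul3 (-0.53, SE 0.14) and Cul2 (-0.37, SE 0.12) were the 2 lower genes.

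Outside the Usp family, 1 of 9 deubiquitinases was higher, Otub2 (log2 fold change 1.39, SE 0.27), and 1 lower, Stambpl1 (-1.83, SE 0.29). Otub2 stood at 8.32 ± 2.81 against 21.1 ± 2.33 normalised CPM. Stambpl1 stood at 13.3 ± 1.15 against 3.75 ± 1.34 normalised CPM over 102 exon bases. Of 12 shuttle and p97 genes 2 were higher and 4 lower. The lower ones included Ubxn4, which ties the p97 ATPase to the endoplasmic reticulum, at 302 ± 21.4 against 177 ± 14.5 normalised CPM (-0.77, SE 0.11), and the p97 cofactor Nsfl1c (-0.65, SE 0.12), and the higher ones were Ubqln4 (0.87, SE 0.15) and Ubxn7 (0.50, SE 0.15). Of 6 genes of ubiquitin-like modifiers, Sumo3 (1.75, SE 0.24) and Sumo2 (0.50, SE 0.11) were higher. Sumo3 stood at 4.11 ± 0.936 against 14.2 ± 0.985 normalised CPM. The SUMO proteases Senp2 (-0.59, SE 0.12) and Senp5 (-0.51, SE 0.11) were lower. Of 5 cytosolic heat shock genes, the small chaperone Cryab was higher (0.36, SE 0.13) and Hspe1, which encodes a mitochondrial chaperonin, lower (-1.76, SE 0.18). The further lists fell from 37 to 24 calls without ARF-labelled replicate 3. The calls of Nfe2l1, Psme4, Ubb, Cul2, Cul3, Rbck1, Ubxn7 and Cryab did not hold in every fit that left out 1 library.

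**Figure D4:**
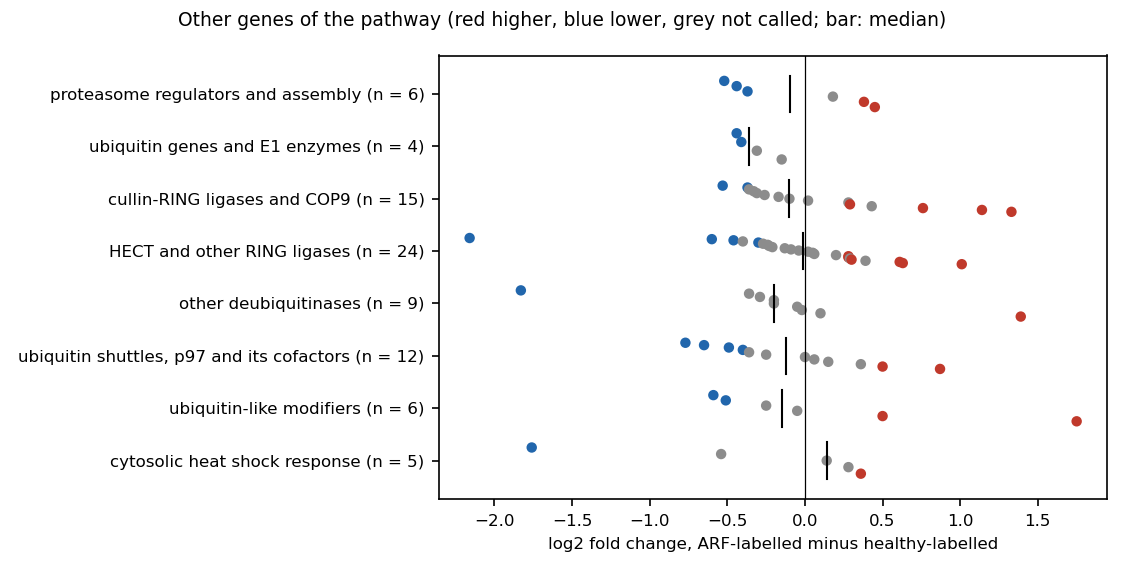
Log2 fold change (horizontal axis) of each tested gene of 8 further lists of the ubiquitin and chaperone systems (vertical axis), coloured by call, with the median of each list as a bar. The medians lie between -0.36 and 0.14, and single genes reach -2.16 (Birc3) and 1.75 (Sumo3).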

How the data were processed

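For 6 kidney libraries the authors deposited raw counts of read pairs. Per the file headers featureCounts 2.0.1 made them from exons grouped under a gene name, with strand ignored. Bowtie 0.12.2 and mm9 appear in the submitters' processing notes, with the aligner and build behind the counts not given in the sources used here. Row names were not used to name genes, since 7760 of 9520 genes read by position had no row of their own symbol. Rows were therefore intersected with GRCm38 exons (GENCODE M21 basic, protein-coding and long non-coding genes; bedtools 2.31.1). A row was assigned where a single gene held 0.9 or more of the exon bases it overlapped, with a minimum of 25 bases. This placed 63.0% of the counts. A row can also hold bases outside those exons, and 39 of the 59 genes were still tested when 0.1 of a row's bases had to lie on the gene's exons.

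All genes passing filterByExpr were tested with edgeR 4.0.16 (R 4.3.3; TMM, quasi-likelihood, group as the only term, two-sided), with DESeq2 1.42.0 as an alternative. The same code was tested on simulated counts. The main fit did not pair libraries by replicate number, and a fit that did is given with the dependence on processing. Counting error limits genes with few counts. Members and lists were chosen with earlier results of these data known. Named genes are all proteasome members; per other family, up to 6 called in each direction, the 2 with most CPM and the 2 with the smallest change; 9 chosen symbols, of which Usp2 and Trim25 were members; and up to 2 per direction in each further list. Trim30d and Trim34a were added for their position after their values were seen. A gene of a further list that this rule names is not reported here.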

Additional observations from a re-analysis of the deposited data

How the results depend on the processing

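The 38 named genes were tested under 15 alternatives, except 4 that could not be tested with at least 100 exon bases, 7 with 0.1 of a row's bases on the gene and 1 with 0.99 of its exon bases in 1 gene. The 7 were Psmb7, Psmb9, Psmc2, Usp28, Usp43, Trim2 and Trim8. There were 14 reversals, all in genes that were not called in either fit. By library totals alone the log2 fold change became 0.03 for Psmb7, 0.14 for Ube2s and 0.12 for Usp39, and with no filter 0.01 for Ube2s. Psmd3 was at -0.0041 with at least 100 exon bases, and at -0.03 when rows needed 0.1 of their bases on the gene, which put Trim39 at -0.05. That last alternative was chosen after the data were seen; it tested 3020 genes and called 1602, fewer because fewer genes entered. When 1 library was left out, values ran from -0.08 to 0.09 for Psmd3, -0.01 to 0.08 for Ube2r2, -0.08 to 0.07 for Ube2s, -0.13 to 0.04 for Usp39 and -0.01 to 0.16 for Trim39. The proteasome count became 2 with DESeq2 size factors, with library totals and with a filter of 10 counts in 3 libraries. The Ube2 count became 3 with library totals. Leaving out 1 library gave 15 to 22 calls among the 59 genes, 1 proteasome, 3 to 5 Ube2, 4 to 8 Usp and 6 to 10 Trim calls, and 24 to 31 in the further lists. Over the whole table such fits called 2117 to 2495 genes, and 12 of the 24 calls held in all 6. The cause of these shifts was not tested. With the replicate number as a block 17 of the 59 genes were called, among them 2 Ube2 genes. Same-numbered libraries deviated from their group means with correlations of -0.066, -0.227 and -0.307. Deviations within a group of 3 libraries are tied to each other, so these values cannot decide whether the numbers are a pairing. Counts over all libraries were lowest for Trim34a (59), Ube2cbp (80) and Trim6 (87).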

Other observations

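The choice of autosomal genes left out 10 genes of the 4 families, of which Usp11 and Usp9x, both X-linked, were tested; they are named here after their values were seen. Usp11, a protease of the DNA damage response, measured 18.9, 16.7 and 14.7 normalised CPM in the healthy-labelled and 29.8, 31.4 and 30.7 in the ARF-labelled libraries. The groups were well separated (log2 fold change 0.86, SE 0.14, edgeR adjusted p = 0.00139), and the call held in all 6 fits that left out 1 library. Usp9x, its large relative, stood at 902 ± 80.6 against 816 ± 24.7 normalised CPM and was not called (-0.15, SE 0.11, edgeR adjusted p = 0.315).

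The 16 genes that could be read but lay under the count limit were Psmc4, Psmd1, Ube2e3, Usp13, Usp29, Usp17lc, Usp17ld, Usp17le, Trim9, Trim10, Trim30c, Trim43b, Trim45, Trim46, Trim54 and Trim72. Their counts over all 6 libraries ran from 0 to 36. A low count here can mean that the bases read by position lie outside the transcript's main exons, and it does not show that the gene was silent.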
